A study of Mus musculus with 2 samples.

Results

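The weakly marked promoters of MEL cells are those of 321 protein-coding genes on chromosomes 1 to 19 that carried trimethylation of histone H3 at lysine 4 (H3K4me3) at a transcription start site (TSS), but only in peaks with a low signal value. They were chosen by that value: at least 1 replicated peak had to lie within 1000 bp of an annotated start, and the highest signal value among such peaks had to be under 5. They were 3% of the 10704 genes with a TSS peak, here called marked genes, and 1.54% of the 20807 protein-coding genes of these chromosomes. The signal value is a score that the authors gave each peak, and no source used here defines it.

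The study mapped H3K4me3 by ChIP-seq in MEL, an immortalized mouse erythroleukaemia line. The data were peak lists on mm10 from 2 libraries of 1 group, labelled biological replicates 1 and 2, from the same cell sample and selected for fragments of 150 to 350 bp. There was no second condition, so every comparison below is between classes of genes or between the replicate lists, it is a description, and no test was run. With peak lists and no reads to count, library depth is unknown, and a gene without a peak in a list may lack reads and not the mark.

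H3K4me3 is laid down at promoters by the SET1 and MLL complexes, which are drawn to CpG islands and to the initiating polymerase. At an active promoter the mark usually sits on the nucleosomes flanking a nucleosome-poor start site. Promoters rich in CpG tend to carry the mark in many tissues, while CpG-poor promoters tend to carry it where the gene is in use, and replication-dependent histone genes, which are transcribed in S phase, form dense clusters of short genes without introns.

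To show what these promoters look like, the 200 bases before the 5'-most annotated start are given for the members of lowest signal value in each CpG class among the 21 named genes whose strongest peak covered that start, was at no other protein-coding gene and whose start was within reach of a peak in both replicate lists. Of those 21 genes, 11 had a low-CpG, 4 an intermediate-CpG and 6 a high-CpG promoter. All are written 5' to 3' along the gene from GRCm38.p6, the build of mm10, with CG pairs in capitals. The high-CpG examples are Sfi1, a centrin-binding protein, and Acot1, an acyl-CoA thioesterase.
Sfi1, chr11:3193464-3193663, minus strand: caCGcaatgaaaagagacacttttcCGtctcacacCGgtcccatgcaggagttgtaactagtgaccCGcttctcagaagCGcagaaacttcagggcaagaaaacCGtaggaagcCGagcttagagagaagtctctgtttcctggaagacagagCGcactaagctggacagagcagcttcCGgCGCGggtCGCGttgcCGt
Acot1, chr12:84009290-84009489, plus strand: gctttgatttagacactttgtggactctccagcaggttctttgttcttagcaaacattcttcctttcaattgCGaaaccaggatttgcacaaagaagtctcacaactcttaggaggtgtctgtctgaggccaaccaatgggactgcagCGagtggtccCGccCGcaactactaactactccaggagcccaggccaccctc
The intermediate examples are Plvap, which builds the diaphragms of endothelial fenestrae, and Tmem37.
Plvap, chr8:71511753-71511952, minus strand: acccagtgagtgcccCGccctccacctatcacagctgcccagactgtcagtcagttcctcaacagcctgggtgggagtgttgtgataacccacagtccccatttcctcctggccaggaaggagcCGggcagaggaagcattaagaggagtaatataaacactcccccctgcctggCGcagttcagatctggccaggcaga
Tmem37, chr1:120074075-120074274, minus strand: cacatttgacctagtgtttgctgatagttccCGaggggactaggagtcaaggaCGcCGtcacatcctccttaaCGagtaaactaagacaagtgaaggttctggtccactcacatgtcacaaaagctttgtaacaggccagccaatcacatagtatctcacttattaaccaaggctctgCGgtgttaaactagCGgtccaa
The low-CpG examples are Txlnb, a taxilin, and Myct1, whose peaks had a −log10 q of only 1.30 and 0.86.
Txlnb, chr10:17796026-17796225, plus strand: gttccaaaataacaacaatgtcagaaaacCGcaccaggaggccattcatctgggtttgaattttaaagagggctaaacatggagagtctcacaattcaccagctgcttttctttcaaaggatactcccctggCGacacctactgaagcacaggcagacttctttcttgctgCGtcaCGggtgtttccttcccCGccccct
Myct1, chr10:5593575-5593774, plus strand: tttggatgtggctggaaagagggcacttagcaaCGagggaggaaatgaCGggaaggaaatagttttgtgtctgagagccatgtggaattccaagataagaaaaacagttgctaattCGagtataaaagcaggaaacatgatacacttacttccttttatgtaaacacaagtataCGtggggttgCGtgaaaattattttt
The only weakly marked globin gene, Hba-a1, is shown because it encodes the alpha chain of adult haemoglobin.
Hba-a1, chr11:32283311-32283510, plus strand: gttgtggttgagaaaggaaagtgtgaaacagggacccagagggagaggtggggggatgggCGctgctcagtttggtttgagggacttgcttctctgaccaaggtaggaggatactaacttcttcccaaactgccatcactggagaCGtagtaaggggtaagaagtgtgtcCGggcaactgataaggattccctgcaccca
The histone genes of lowest signal value, chosen after their values were seen, are shown because histone genes were the largest of the classes examined.
Hist1h4c, chr13:23698455-23698654, minus strand: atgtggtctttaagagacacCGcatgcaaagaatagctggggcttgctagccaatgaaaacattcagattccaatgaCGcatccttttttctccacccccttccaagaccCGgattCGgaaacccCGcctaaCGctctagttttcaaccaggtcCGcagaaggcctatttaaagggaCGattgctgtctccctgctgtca
Hist1h4f, chr13:23551649-23551848, minus strand: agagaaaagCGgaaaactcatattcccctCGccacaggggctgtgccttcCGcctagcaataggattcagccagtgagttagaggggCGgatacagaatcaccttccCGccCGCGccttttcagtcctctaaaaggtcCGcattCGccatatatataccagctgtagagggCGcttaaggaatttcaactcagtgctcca
These stretches held 14 CG pairs at Sfi1 and 10 at Hist1h4f, but 3 each at Plvap and Hba-a1. The sequence TATAAA lay on the gene's strand at Plvap and Myct1, and CCAAT at Acot1, Tmem37 and Hist1h4c.

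The signal values of the 321 genes ran from 1.84 to just under the threshold, with a median of 3.94 and quartiles of 3.50 and 4.53. The other 10383 marked genes had a median of 13.99 and a highest value of 35.27. The threshold did not fall in a gap. Enpp3, Rasgrp4, Pcdhgc5, Cdkn1c and Radil lay just inside at 4.998, while Rogdi at 5.042, Hist1h3e at 5.048, Hist1h2be at 5.056, Hspb9 at 5.061 and Trim38 at 5.068 lay just outside. The members rested on 301 different peaks, of which 18 served 38 of the genes and none served more than 3. The authors' −log10 q had a median of 4.79 in the members and 67.3 in the other marked genes, and the q-value was above 0.05 for 7 members, or 2.18%. A −log10 q of at least 5 was reached by the strongest peak of 148 members, or 46.1%.

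**Figure D1:**
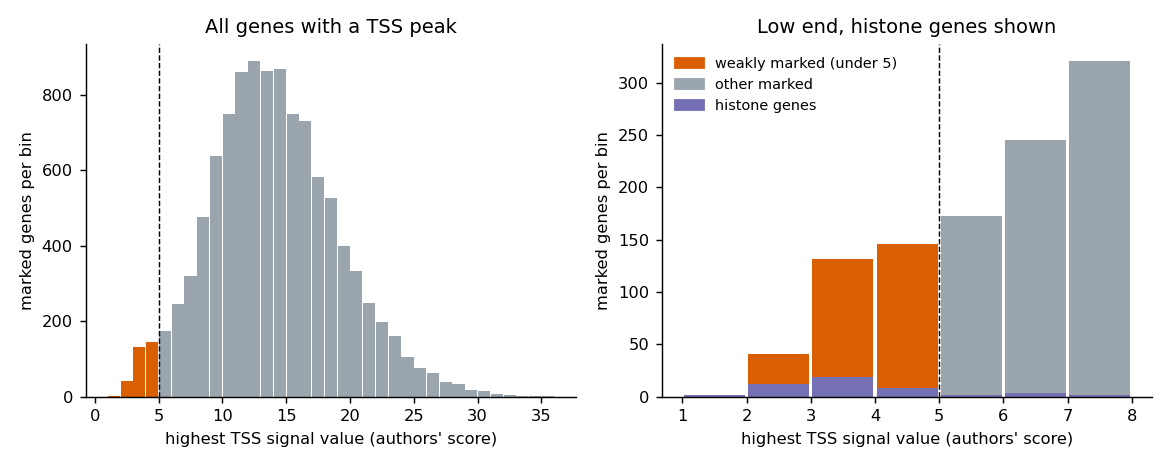
Number of marked genes (vertical axis) by the highest signal value among their TSS peaks (horizontal axis, authors' score, bins of 1), for all 10704 marked genes on the left and the low end on the right. The 321 weakly marked genes, left of the dashed line at 5, form the lower tail of 1 continuous distribution, and 41 of the 55 marked histone genes lie in it.

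The largest single class was the replication-dependent histone genes, which supply the core and linker histones that package new DNA. Of 67 annotated on these chromosomes 55 were marked and 41 were weakly marked, which is 74.5% of the marked ones beside 3% of all marked genes. By product, 8 of 9 marked H4 genes were weakly marked, 11 of 14 H2B genes, 9 of 12 H3 genes, 10 of 15 H2A genes and 3 of 5 linker H1 genes. By place, they comprised 36 of the 43 marked genes of the Hist1 cluster, 4 of 10 of the Hist2 cluster and Hist4h4. The cluster on chromosome 13 gave that chromosome 41 weakly marked genes, 9.65% of its marked genes, of which 5 were not histone genes. On the other chromosomes the share ran from 1.15% on chromosome 16 to 3.82% on chromosome 3, which holds the Hist2 cluster.

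The lowest values of all members were at H4 and H3 genes. Values given for a gene in several lists are those of its strongest TSS peak in each list, which need not be the same peak. Hist1h4c had a signal value of 1.84 in the replicated list, 3.81 in the replicate 1 list and 2.26 in the replicate 2 list. No replicate 1 peak overlapped its replicated peak. Hist1h4f had 1.90, 2.75 and 2.09, and Hist2h3c2 had 2.18, 2.16 and 2.28 in the same order. Among the 5 lowest members the only other gene than a histone gene was Bnipl at 2.19, and Hist1h4a followed at 2.24. All 5 were within reach of a peak in both replicate lists.

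The weakly marked histone genes had peaks beside their starts and not on them. None of the 41 had a peak over its annotated start: the edge of the strongest peak lay 111 to 943 bp away, with a median of 471 bp. For 24 of them, 58.5%, the start stood in a gap with a peak within reach on each side, beside 17.1% of all weakly marked and 16.1% of the other marked genes. The 14 other marked histone genes shared this layout: 9 of them, 64.3%, stood in such a gap, and the strongest peak covered a start in 2. At Hist1h4c, whose single TSS peak spans chr13:23697672-23697838, the peak was 167 bp wide and began 616 bp downstream of the start. At Hist1h4f the peak of 517 bp at chr13:23550791-23551307 began 341 bp downstream of the start.

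Histone peaks were not narrow or of low confidence compared with the rest of the class. Their median width was 652 bp and their median −log10 q was 10.3, beside 318 bp and 4.35 for the 280 other members. A peak shared with another protein-coding gene lay at 27 of the 41, or 65.9%, beside 7.5% of the other members. The 41 promoters were CpG-rich, with 29 high-CpG, 12 intermediate and no low-CpG promoter. Many of these genes have close copies: at 35 of the 41, at least 10% of the 32-base words around the start occurred elsewhere in the genome, with a median of 39.1% of words, and no source used here says how reads mapping to several places were treated. Its part in the low values was not tested, and the values of single histone genes are uncertain. Among the 8 marked histone genes with under 10% repeated words, 6 were weakly marked.

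The replicates placed the histone genes differently. All 41 were within reach of a peak in the replicate 1 list and 39 in the replicate 2 list, the missing ones being Hist1h2bf and Hist1h2ad. Ranked among all genes with a TSS peak in that list, their median percentile was 3.67 in replicate 1 and 0.480 in replicate 2. When the same share of lowest marked genes was taken from each replicate list instead, 39 of 53 marked histone genes, 73.6%, were weakly marked in replicate 2 alone, and 20 of 57, 35.1%, in replicate 1 alone.

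Erythroid genes gave 1 weakly marked gene, a count too small to set apart from the 3% of all marked genes. No member was found among the 14 marked erythroid transcription factors, the 20 marked genes of haem synthesis and iron handling or the 27 marked erythroid membrane and effector genes, whose median signal values were 14.78, 13.47 and 11.82. The exception was Hba-a1, 1 of 3 marked globin genes, which had a median signal value of 5.37, lower than those of the other erythroid lists. Its peak of 254 bp at chr11:32283179-32283432 lay 79 bp before the start, with signal values of 3.66 in the replicated list, 3.05 in replicate 1 and 3.93 in replicate 2. Of the 32-base words around its start 88.0% occurred elsewhere in the genome, so a near-identical copy could share its reads and the value is uncertain.

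Among the lists of other blood lineages, 4 of 20 myeloid, 4 of 22 lymphoid and 3 of 13 mast cell genes were marked. So were 7 of 17 megakaryocyte and platelet genes and 7 of 18 stem and progenitor genes, beside 10704 of all 20807 genes. Several of the marked genes of these lists were weakly marked. The share of all marked genes was 3%, and the higher shares in these lists rest on few genes. Of 17 megakaryocyte and platelet genes 7 were marked, and 3 of these were weakly marked. Gp1ba, the platelet receptor chain that binds von Willebrand factor, had values of 2.78, 3.09 and 2.59 in the replicated, replicate 1 and replicate 2 lists. No replicate 2 peak overlapped its replicated peak. Tubb1, the platelet beta-tubulin, had 3.87, 4.11 and 4.11 in the same order. Vwf itself had 4.60, 3.45 and 5.70. The peak covered a start at Tubb1 only, and the edge lay 662 bp away at Gp1ba and 438 bp at Vwf.

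Of 20 myeloid genes 4 were marked, and 3 of these were weakly marked, beside 3% of all marked genes but on few genes. Of those 3 genes, 2 were seen in 1 replicate alone. Cebpa, a transcription factor of granulocyte development, had 4.25 in the replicated list, no TSS peak in replicate 1 and 7.88 in replicate 2. Fcgr3, a receptor for immunoglobulin G, had 4.83, none and 5.53, and with 85.4% repeated words its values are uncertain, as those of Hba-a1 are. Csf3r, the receptor for granulocyte colony-stimulating factor, had 4.58, 4.60 and 4.93 and so was seen in both.

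In the remaining blood lists, 1 of 3 marked mast cell genes was weakly marked: Fcer1a, the alpha chain of the high-affinity receptor for immunoglobulin E, at 4.62, 3.21 and 6.29. Of 4 marked lymphoid genes the weakly marked one was Tcf7, a T cell transcription factor, at 4.50, 3.70 and 4.75. None of the 7 marked stem and progenitor genes belonged to the class.

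Genes of tissues foreign to a red cell precursor were mostly unmarked, whereas 10704 of all 20807 genes were marked. The marked genes of these lists were weak in some lists and not in others. Of all marked genes 3% were weakly marked, and the higher shares here rest on 1 or 2 genes each. None of 3 marked neuronal genes, 7 developmental transcription factors and 1 pluripotency gene was weakly marked, and 1 of 5 epithelial genes was, the claudin Cldn7. In the replicated list the endothelial adhesion molecule Pecam1 had 3.91, as 1 of 3 marked endothelial genes, and it shared its peak with Milr1. That peak covered a start of Milr1, and its edge lay 596 bp upstream of the start of Pecam1. The fibroblast list gave Thy1 at 4.37 and Dcn, the proteoglycan decorin, at 4.52, from 5 marked genes. The muscle list gave Ryr1, the calcium release channel of skeletal muscle, at 3.73 and Des, the intermediate filament desmin, at 4.25, from 3 marked genes. Meiotic genes were represented by Spo11, which makes the breaks that start recombination, at 2.94 and Dazl, a germ cell RNA-binding protein, at 3.82, from 5 marked genes. Ryr1 was within reach of a peak in replicate 2 only, and the other weakly marked genes named here in both lists. The peak of Spo11 had a −log10 q of 0.84, the lowest of all members, which is a q-value above 0.05. At Dazl, Des and Cldn7 the peak reached an internal start, with the 5'-most start out of reach.

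Further lists that respond to signals or are set by parent of origin each held a few members. Of all marked genes 3% were weakly marked, and the shares here, 10% to 20%, rest on 1 to 3 genes each. Interferon response genes gave 3 of 28 marked: the GTPase Iigp1 at 4.50, the chemokine Cxcl10 at 4.69 and Ifit1 at 4.98, all within reach of a peak in both replicate lists. Ephrin ligand Efna1 at 3.83 was the only one of 5 marked developmental ligands. Cdkn1c, an imprinted inhibitor of cyclin-dependent kinases, was the only one of 10 marked imprinted genes and lay just under the threshold.

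Lists and families of genes used in every cell held no members, beside a share of 3% of all marked genes. Each was too small to set its count apart from that share. Rfc3, Cenpu and Slbp, described below, were weakly marked but stood outside the list of cell cycle and replication genes. None of 72 marked ribosomal protein genes, 78 mitochondrial ribosomal protein genes or 37 proteasome subunit genes was weakly marked. Nor was any of 28 marked cell cycle and replication genes or 22 marked housekeeping genes. Of 284 marked Zfp and Zscan zinc finger genes 2 were weakly marked, Zfp345 at 4.00 and Zfp970 at 4.98. These 2 genes had 63.2% and 86.3% repeated words, so their values are uncertain. Olfactory receptor genes were at the other end: 6 of 1128 were marked and 4 of those weakly, Olfr1509 at 2.54, Olfr417 at 3.75, Olfr112 at 4.16 and Olfr56 at 4.36. The peak covered a start at Olfr56 alone, an internal start with the 5'-most one out of reach, and it was shared with the interferon-inducible GTPase gene Ifi47. All words around that 5'-most start were repeated (100%), and repeats at the internal start were not measured.

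Name families with transport, metabolic or structural roles differed in share, from 3.21% to 50% of their marked genes beside 3% of all marked genes. The higher shares rest on 2 to 4 weakly marked genes each. Cytochrome P450 genes gave 4 of 14 marked, the lowest being Cyp4x1 at 2.87, Cyp4b1 at 3.82 and Cyp1a1 at 4.75. Solute carriers gave 6 of 187, 3.21%, near the share of all marked genes, the lowest being Slc26a11 at 3.18, the sodium-calcium exchanger Slc8a2 at 4.25 and Slc23a4 at 4.37. Claudins, which seal tight junctions, gave Cldn13 at 3.98 and Cldn7 at 4.00 from 4 marked genes. Cilia and flagella genes gave 4 of 47, the lowest being Cfap45 at 3.25, Ift43 at 3.39 and Cfap53 at 3.62.

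Receptors, secreted factors and adhesion molecules gave scattered members. Il6, the cytokine interleukin-6, had 3.12 in the replicated list, 3.52 in replicate 1 and 3.08 in replicate 2, and Il1r2, the decoy receptor of interleukin-1, had 4.00 with a TSS peak in replicate 2 only. They came from 22 marked interleukin and receptor genes. The protease Adam19 at 2.58 and its relative Adam11 at 3.75 came from 16 marked genes. Gpr183, a receptor for oxysterols, at 2.96 and Adgrg5 at 4.32 came from 21. Cd180 at 3.83 and Cd36 at 4.52 came from 25 marked genes named for cluster of differentiation. These 4 pairs made up 8% to 12.5% of their marked families, above 3%, but on 2 genes each.

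Adhesion and channel families gave 1 or 2 members each. Beside 3% of all marked genes, the families given here ran from 1.25% for Ccdc genes to 33.3% for cadherins, on 1 or 2 genes each. Pcdhb21, a protocadherin, had 3.10 in the replicated list, and with Pcdhgc5 came from 7 marked protocadherins. Cdh19 was 1 of 3 marked cadherins, with 4.23 in replicate 1 and 4.14 in replicate 2. The potassium channel Kcnu1 had 4.68, as 1 of 17, and the calcium channel Cacna1g 4.70, as 1 of 7. The forkhead factor Foxo6 had 4.34, as 1 of 17 and in replicate 2 only, and the protease inhibitor Serpinb1a 4.58, as 1 of 5. Ccdc69 had 4.61, as 1 of 80.

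Families grouped by name alone stood near the share of all marked genes. Tmem genes gave 5 of 155, 3.23%, the lowest being Tmem173, the innate immune adaptor STING, at 3.20, Tmem100 at 3.50 and Tmem163 at 3.75. Predicted Gm genes gave 7 of 175, with Gm28035 at 3.56, Gm572 at 3.62 and Gm49601 at 3.75 the lowest, and clone-named Rik genes 6 of 215, with 6030468B19Rik at 3.52, 9130213A22Rik at 3.59 and 2310009B15Rik at 3.83. In all, 118 of the 321 genes belonged to at least 1 of 23 lists and 34 name families, and 21 of these held no member.

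**Figure D2:**
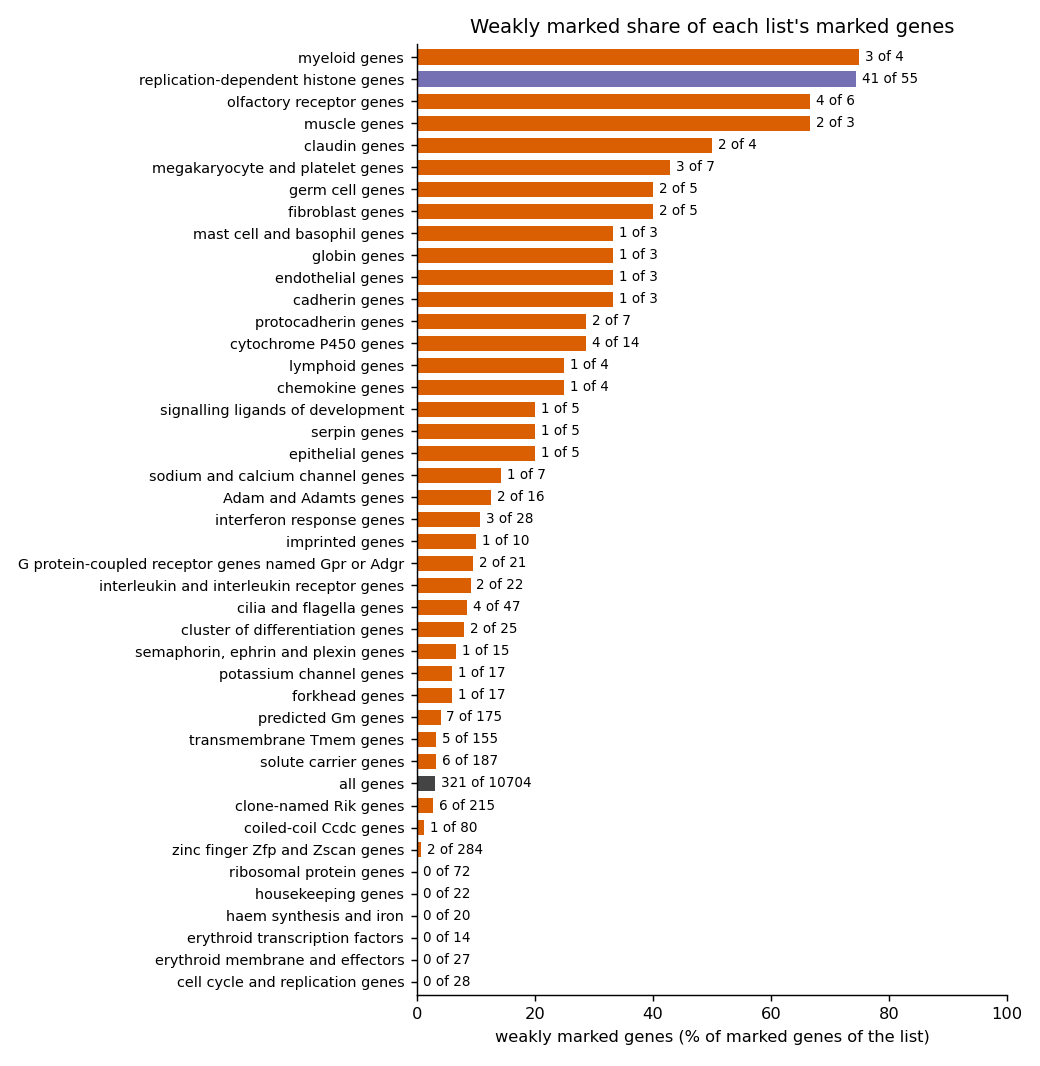
Weakly marked genes as a percent of the marked genes of each list or name family (bars; the counts stand beside them), for lists with at least 1 weakly marked gene and 3 marked genes, with 6 lists that held none and all genes (dark bar, 3%). The histone family (purple) combines a high share, 74.5%, with many genes, whereas most other high shares rest on fewer than 10 marked genes.

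CpG content set the weakly marked promoters apart from the other marked ones, a comparison that the choice by signal value did not use. Low-CpG promoters were 48.6% of the members (95% exact binomial interval 43.0 to 54.2), beside 12% of the other marked genes and 66.6% of the genes without a TSS peak. High-CpG promoters were 34.0% (28.8 to 39.4), beside 72.3% and 18.8%. Read the other way, 1.43% of the marked high-CpG genes, 3.31% of the intermediate and 11.1% of the low-CpG genes were weakly marked. These intervals cover the counting of genes only, and genes that share a peak are not independent.

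The histone genes pulled these shares towards CpG-rich promoters. Without them, 55.7% of the 280 remaining members had a low-CpG and 28.6% a high-CpG promoter. Classed at the start nearest the peak in place of the 5'-most start, 52.3% of the 321 members and 7.87% of the other marked genes were low-CpG. Median signal values of the members were 4.00 in high-CpG, 3.74 in intermediate and 3.93 in low-CpG genes. The rule held all of them under 5, so these medians cannot show how the classes differ in signal. In the other marked genes the medians were 14.41, 13.06 and 12.32 in the same order. Median widths of the members were 441, 365.5 and 302 bp, and without histone genes 329.5 bp in the high-CpG and 314 bp in the intermediate class.

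**Figure D3:**
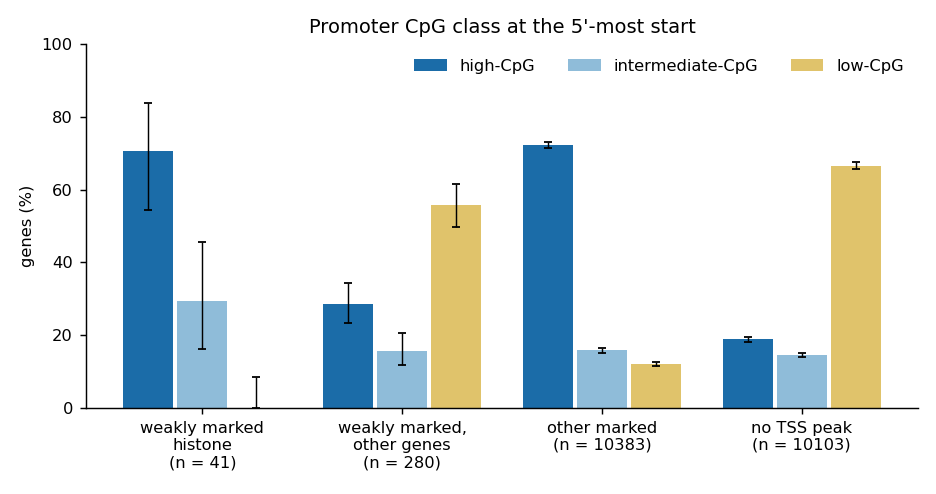
Percent of genes (vertical axis) with a high-CpG, intermediate or low-CpG promoter in the 1001 bases around the 5'-most start, for weakly marked histone genes, other weakly marked genes, other marked genes and genes without a TSS peak. Bars are shares and lines are 95% exact binomial intervals; the 280 weakly marked genes other than histone genes, at 55.7% low-CpG, lie between the other marked genes at 12% and the genes without a TSS peak at 66.6%.

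Short sequence motifs were counted on both strands in the 300 bases from 250 before to 50 from the 5'-most start; none of the 5 motifs contains another. TATAAA was present at 16.8% of the weakly marked genes, 6.77% of the other marked and 12.7% of all genes. It was present at 58.5% of the weakly marked histone genes, and at 10.7% of the members without them. CCAAT was present at 87.8% of the histone members, 37.1% of the other members and 38.6% of all genes. The 14 other marked histone genes had TATAAA at 42.9% and CCAAT at 85.7%. GGGCGG was present at 44.2% of the members beside 62.3% of the other marked and 43.7% of all genes. CCGGAAG was present at 3.43% of the members beside 19.1% of the other marked and 11% of all genes, and AGATAA at 12.5% beside 6.49% and 9.94%. Split by class, AGATAA was present at 24.4% of the histone members and at 10.7% of the other members. A match is a description of these letters, and neither a match nor its absence shows whether a factor binds there.

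The strongest TSS peaks of the weakly marked genes were short. Their median width was 341 bp, with quartiles of 219 and 544 bp, beside 1402 bp in the other marked genes, and 68.5% were under 500 bp beside 4.30%. Peak width and signal value come from the same peaks, so the difference is not independent of the choice. With gaps of up to 1000 bp closed, the median domain was 461 bp beside 2274 bp, and 69.2% of the members' domains consisted of 1 peak beside 29.2%.

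A width of at least 1000 bp was reached by 24 members, or 7.48%. The widest peak, 4520 bp, was shared by Hes7, a repressor of the segmentation clock, and 9130213A22Rik, with a signal value of 3.59 and a −log10 q of 19.6. Txnip, the thioredoxin-interacting protein, followed at 2633 bp with the highest −log10 q of the class, 58.2. Sfi1 had 2174 bp and 46.2, and Mical1, an enzyme that oxidises actin, had 1919 bp and 12.3. The next highest −log10 q were those of Slbp at 40.8, Rfc3 at 31.1, Ocel1 at 28.7 and Cenpu at 27.5. Slbp binds the stem-loop of histone messenger RNA, Rfc3 is a subunit of the loader of the replication clamp, and Cenpu is a centromere protein. Mical1 aside, at 4.93, the signal values of these genes were 2.82 to 4.82, and Txnip, Sfi1, Slbp, Rfc3, Ocel1 and Cenpu had high-CpG promoters.

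Most weak peaks lay beside a start. The strongest peak covered an annotated start in 73 members, 22.7%, beside 74.7% of the other marked genes. The median distance from peak edge to start was 154 bp beside 0 bp, and the edge was over 500 bp away in 22.4% beside 2.54%. The 5'-most start was within reach in 72.6% beside 93.8%, so the other members were reached only through an internal start. By CpG class this share was 83.5% beside 98.5% in high-CpG and 78.6% beside 94.9% in intermediate genes. In low-CpG genes it was nearly the same, 62.8% beside 64.4%. Summits lay upstream of the start in 48.6% of the members beside 31.4%, and fell in exons for 31.5%, introns for 33.3% and upstream of the gene for 32.4%. The nearest peak with a signal value of 5 or more lay a median of 17427 bp away: within 5000 bp for 65 members, 20.2%, and over 50000 bp for 62, 19.3%. A single peak within reach was found for 73.2% beside 31.1%.

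**Figure D4:**
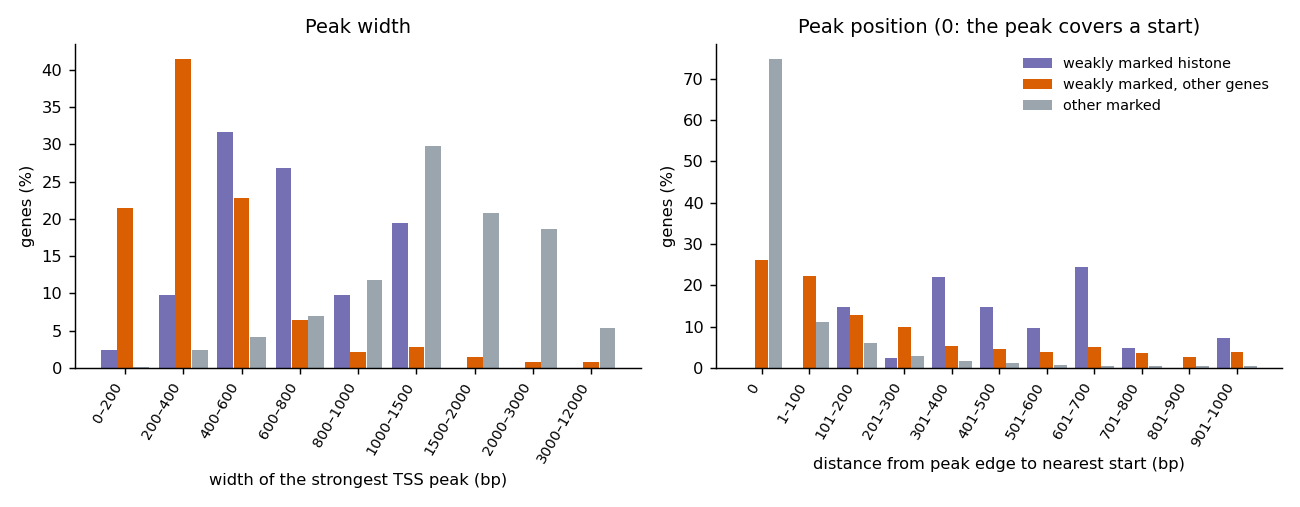
Left, percent of genes by width of the strongest TSS peak in bp (bins include their lower bound); right, percent of genes by distance in bp from the edge of that peak to the nearest start, where 0 means that the peak covers a start. Other marked genes concentrate at 1000 bp and wider and at distance 0, the 280 weakly marked genes other than histone genes under 600 bp, and no histone member is at 0.

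Repeated sequence, measured around the 5'-most start whether or not a peak reached it, was more frequent at the weakly marked than at the other marked promoters. At least 10% repeated words were found at 22.7% of the members, 7.43% of the other marked genes and 16.5% of all genes. Outside the histone genes the share was 13.6%, and 9 of those 280 genes, 3.21%, had at least 50% repeated words. Its part in the low signal values was not tested. With genes at or over 10% left out, 248 members remained, of which 52.0% were low-CpG and 29% high-CpG.

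Most members were seen in both replicates, and replicate 2 carried nearly all of them. A TSS peak was within reach in the replicate 1 list for 262 members, 81.6%, beside 99.2% of all marked genes. In the replicate 2 list it was within reach for 316, 98.4%, beside 100% (5 genes short of all). Both lists had one for 258, or 80.4%, beside 99.2% of all marked genes. The replicated list was made by the authors from the replicate and pooled lists, so presence in them is not independent of the choice. In high-CpG, intermediate and low-CpG members the share in both lists was 81.7%, 76.8% and 80.8%.

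The members seen in 1 list were 58 in replicate 2 alone and 4 in replicate 1 alone. The highest of the former were Slc8a2 at 8.12, Cebpa at 7.88, the smooth muscle actin Actg2 at 7.05, and the scavenger receptor Cd36 and Camkv at 6.45 each in the replicate 2 list. The latter were Btn2a2, a butyrophilin, at 6.67, Nxpe2 at 5.88, Hist1h2bf at 4.77 and Hist1h2ad at 4.16 in the replicate 1 list. Olfr112 had no TSS peak in either list: its replicated peak, 992 bp from the start, was overlapped in both, but the replicate peaks lay beyond 1000 bp. A replicate peak overlapped the strongest peak itself in replicate 1 for 78.2% and in replicate 2 for 97.8% of the members, and none lacked both.

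The members were low in each list on the whole, with exceptions in replicate 1. Their median percentile among the genes with a TSS peak was 2.74 in replicate 1, where 10720 genes had one, and 2.50 in replicate 2, where 10843 had one. The highest percentile was 54.2 in replicate 1 and 12.1 in replicate 2. These percentiles are not independent of the choice, because the replicated list was built from the replicate and pooled lists. Cttnbp2, which binds cortactin, had a signal value of 12.56 in replicate 1, above the median gene of that list, beside 4.13 in replicate 2 and 4.05 in the replicated list. Aldh18a1, an enzyme of proline synthesis, had 10.96, 5.15 and 4.71 in the same order. Ocel1 had 10.68, 5.31 and 4.79. Slbp with 9.95 and Slc23a4 with 9.88 completed the 5 highest of replicate 1, at percentiles of 29.8 and 29.2. In replicate 2 the highest were Rnf151 at 9.23, Slc8a2 at 8.12, Cebpa at 7.88, Tmem37 at 7.33 and Zfp970 at 7.15. Signal values of different lists are set side by side here and not compared as amounts.

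**Figure D5:**
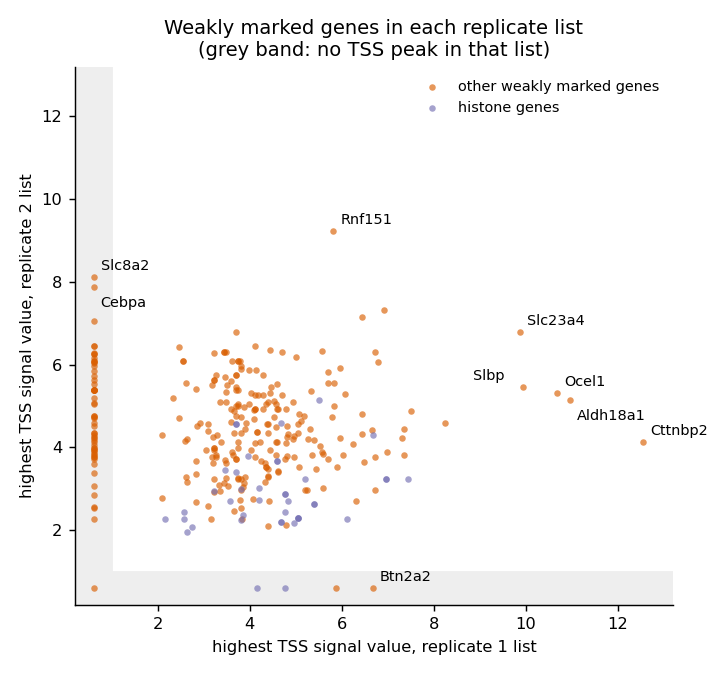
Highest signal value among the TSS peaks of each weakly marked gene in the replicate 1 list (horizontal axis) and the replicate 2 list (vertical axis), in the authors' score; points in the grey bands had no TSS peak in that list. The vertical band holds 58 genes seen in replicate 2 alone and Olfr112 stands in both bands; 5 genes reach beyond 9 in replicate 1, led by Cttnbp2 at 12.56.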

How the data were processed

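The deposited peak lists used here are on mm10 and come from 2 H3K4me3 ChIP-seq libraries of MEL cells. They were the list of each replicate, a pooled list and a list of replicated peaks. Per the notes that accompany the samples, peaks were listed against a control, for single or combined alignments, and the replicated list was then built from these lists. Not given in the sources used here are aligner, peak caller, settings and rule of replication. The authors' signal value, 1 per peak, is a score of undefined scale, and beside it the authors deposited a −log10 p and a −log10 q. Every replicated peak recurred in the pooled list at identical coordinates and signal value, so its signal value is that of the pooled list. The lists used give no depth, so the precision it sets is unknown.

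Starts came from GENCODE M21 on GRCm38. A peak counted for every gene with a start within 1000 bp of it. The CpG class used 1001 bases around the 5'-most start: high where the observed to expected CpG ratio was at least 0.6 and the GC share at least 0.5, low where the ratio was under 0.4. A word of 32 bases was repeated where the same bases stand at another genomic position, in either orientation. Peaks overlapped with at least 1 bp in common. The members and lists were chosen with earlier results of these data known. Genes were named as follows: all weakly marked genes of the blood lists, up to 3 of lowest signal in every other list or family, the lowest, the widest, those nearest the threshold and the highest in each replicate list; those with the highest −log10 q were added after their values were seen. The matching of starts and peaks and the counting of words were tested on simulated data. Python 3.11.15, numpy 2.4.6, pandas 2.3.3, scipy 1.17.1, numba 0.67.0 and matplotlib 3.10.9 were used. The mm9 list was not used here, and the printed sequences leave out chromosome 18.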

Additional observations from a re-analysis of the deposited data

How the results depend on the processing

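The alternatives were start windows of 500 and 2500 bp, the 5'-most start alone, thresholds of 4 and 6, a −log10 q minimum of 5, the pooled list, each peak given to its nearest start, and either replicate list with the same share of lowest genes; leaving out histone genes or promoters with at least 10% repeated words was added after seeing the data. The number of members was 175 under a threshold of 4, 494 under 6 and 152 with −log10 q of at least 5, and under the other alternatives that use the replicated or pooled list it stayed within 1.5 times of 321. With −log10 q of at least 5, 42.1% were high-CpG, 40.1% low-CpG and 94.7% in both replicates, with a median width of 508 bp. With a threshold of 6 the median width was 410 bp and 85.0% were in both replicates, and with the pooled list these were 290 bp and 71.0%. Without histone genes 28.6% were high-CpG and 55.7% low-CpG, and the median width was 318 bp. The weakly marked share of marked histone genes was 60% under a threshold of 4. Over the lists of a single replicate, the number was 321 to 325, which the choice of the same share fixed, the high-CpG share 26.8% to 30.8%, the low-CpG share 53.5% to 55.8%, the median width 236 to 241 bp, the share in both replicates 58.8% to 77.9% and the histone share 35.1% to 73.6%. The causes were not tested. Of the 321 members, 189 were among the lowest genes of replicate 2 alone and 140 among those of replicate 1 alone, 58.9% and 43.6%. In every alternative run the low-CpG share of the members stayed above 12%, that of the other marked genes in the main setting. No paired analysis was possible because the series has 1 group. Depth is unknown, so absence from a list limits every count, and 2 libraries of the same cell sample may differ only technically.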

Other observations

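Several weakly marked genes outside the fixed lists are known from macrophages and neutrophils; they were chosen after their values were seen, and such genes were not counted among all marked genes. Tyrobp, an adaptor of activating receptors, had a signal value of 2.74 in the replicated list, no TSS peak in replicate 1 and 3.38 in replicate 2. Its −log10 q in the replicated list was 1.28, which is a q-value above 0.05. Ncf1, a subunit of the phagocyte oxidase, had signal values of 4.50, 5.08 and 4.82 in the replicated, replicate 1 and replicate 2 lists. The C-type lectins Clec4e and Clec4d had 4.10 and 4.89 in the replicated list, the mannose receptor Mrc1 had 3.21 and the protease Casp1 had 4.12, and these 4 had a TSS peak in both replicate lists.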
